A study of Mus musculus with 7 samples.

Results

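The interferon-stimulated genes and interferon regulatory factors are a set of 46 genes that cells use to sense infection, to receive an interferon signal and to carry it out. Members were listed by symbol: the 4 chains of the type I and type II interferon receptors, 8 transcription factors, 6 RNA or DNA sensors and their regulators, and the families of effector genes that interferon induces, with Isg15 as the marker of the set. Of the 46, 45 were measured among the 30137 mouse genes that the array annotation ties to a transcript cluster of their own, and Ifi44 had no such cluster.

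The cells were HM-1, an ovarian cancer line of the mouse, grown in MEMα medium with fetal bovine serum, penicillin and streptomycin. HM-1-control cells carried a non-silencing hairpin in the GIPZ lentiviral vector (3 arrays), and HM-1-shSnail cells carried 1 of 2 hairpins against Snai1, which encodes the transcription factor Snail: sh1 (2 arrays) or sh2 (2 arrays). Total RNA of each culture was hybridized to an Affymetrix mouse transcriptome array, and no group was treated with interferon. The replicates of a group are called biological, but the sources used here do not say whether a hairpin line was made more than once, so p-values measure the spread between these cultures only.

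Interferon binds a receptor made of Ifnar1 and Ifnar2 (type I) or of Ifngr1 and Ifngr2 (type II). The receptors activate Janus kinases and STAT proteins. A complex that contains Stat2 and Irf9 then binds the interferon-stimulated response element (ISRE) in the promoters of antiviral genes, while STAT dimers bind the gamma-activated site (GAS). Irf1 and Irf2 bind ISRE-like sequences as activator and repressor, and Irf3 and Irf7 drive transcription of the interferons themselves when a sensor such as Ddx58 (RIG-I) meets viral RNA.

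These promoters were read in the RefSeq promoter table (build GRCm38.p6), which held 43 windows for 38 of the 46 members, each from 250 bases before to 50 bases after a start site. The ISRE core, searched on both strands as GAAANNGAA, was present in 20 of the 43 windows (46.5%) and in 8.56% of all 32851 promoters of that length in the table. The GAS letters TTCNNNGAA, also searched on both strands, stood in 12 of the 43 windows (27.9%) and in 8.3% of all promoters. A match is a run of letters and not a measured binding site, and matches of both motifs can overlap. Shown are 3 promoters with repeated ISRE cores, of the marker Isg15, of Ifit1 and of Bst2, and the promoter of Ifngr2, the receptor gene with the largest fall below, which held neither motif in its window. Each stretch runs from 150 to 31 bases before the start site, 5′ to 3′ on the gene's strand, with every match of either motif in capitals.
Isg15, chr4:156200849-156200968, minus strand: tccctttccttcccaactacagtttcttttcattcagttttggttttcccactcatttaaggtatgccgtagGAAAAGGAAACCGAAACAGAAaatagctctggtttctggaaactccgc
Ifit1, chr19:34640739-34640858, plus strand: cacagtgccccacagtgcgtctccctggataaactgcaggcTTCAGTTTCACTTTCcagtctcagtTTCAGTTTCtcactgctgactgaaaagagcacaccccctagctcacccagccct
Bst2, chr8:71537503-71537622, minus strand: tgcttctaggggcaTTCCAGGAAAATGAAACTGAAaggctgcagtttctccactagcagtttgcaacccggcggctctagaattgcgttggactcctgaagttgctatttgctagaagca
Ifngr2, chr16:91546909-91547028, plus strand: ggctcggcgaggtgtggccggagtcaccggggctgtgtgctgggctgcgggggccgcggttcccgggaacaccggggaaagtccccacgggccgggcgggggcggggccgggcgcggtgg

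Most of the set was not above background in these cells. The values are log2 signals, and a cluster was called above background when its mean over the 7 arrays exceeded 7.97, the 95th percentile of the 5222 negative controls. By that measure 12 of 45 members were above background, beside 27.2% of the clusters with 1 gene symbol. They were the 4 receptor chains, Irf2, the sensors and regulators Ddx58, Eif2ak2 and Trim25, the virion tether Bst2, and Ifitm1, Ifitm2 and Ifitm3. Of the other 33, 19 lay below 4.94, the median of the negative controls, and 6 had the same value on all 7 arrays (Irf5, Ifih1, Zbp1, Mx1, Ifi35 and Gbp3), as did 4.59% of all clusters. In 21 members, these 6 included, 4 or more arrays shared 1 value, so their differences rest on few distinct values.

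**Figure D1:**
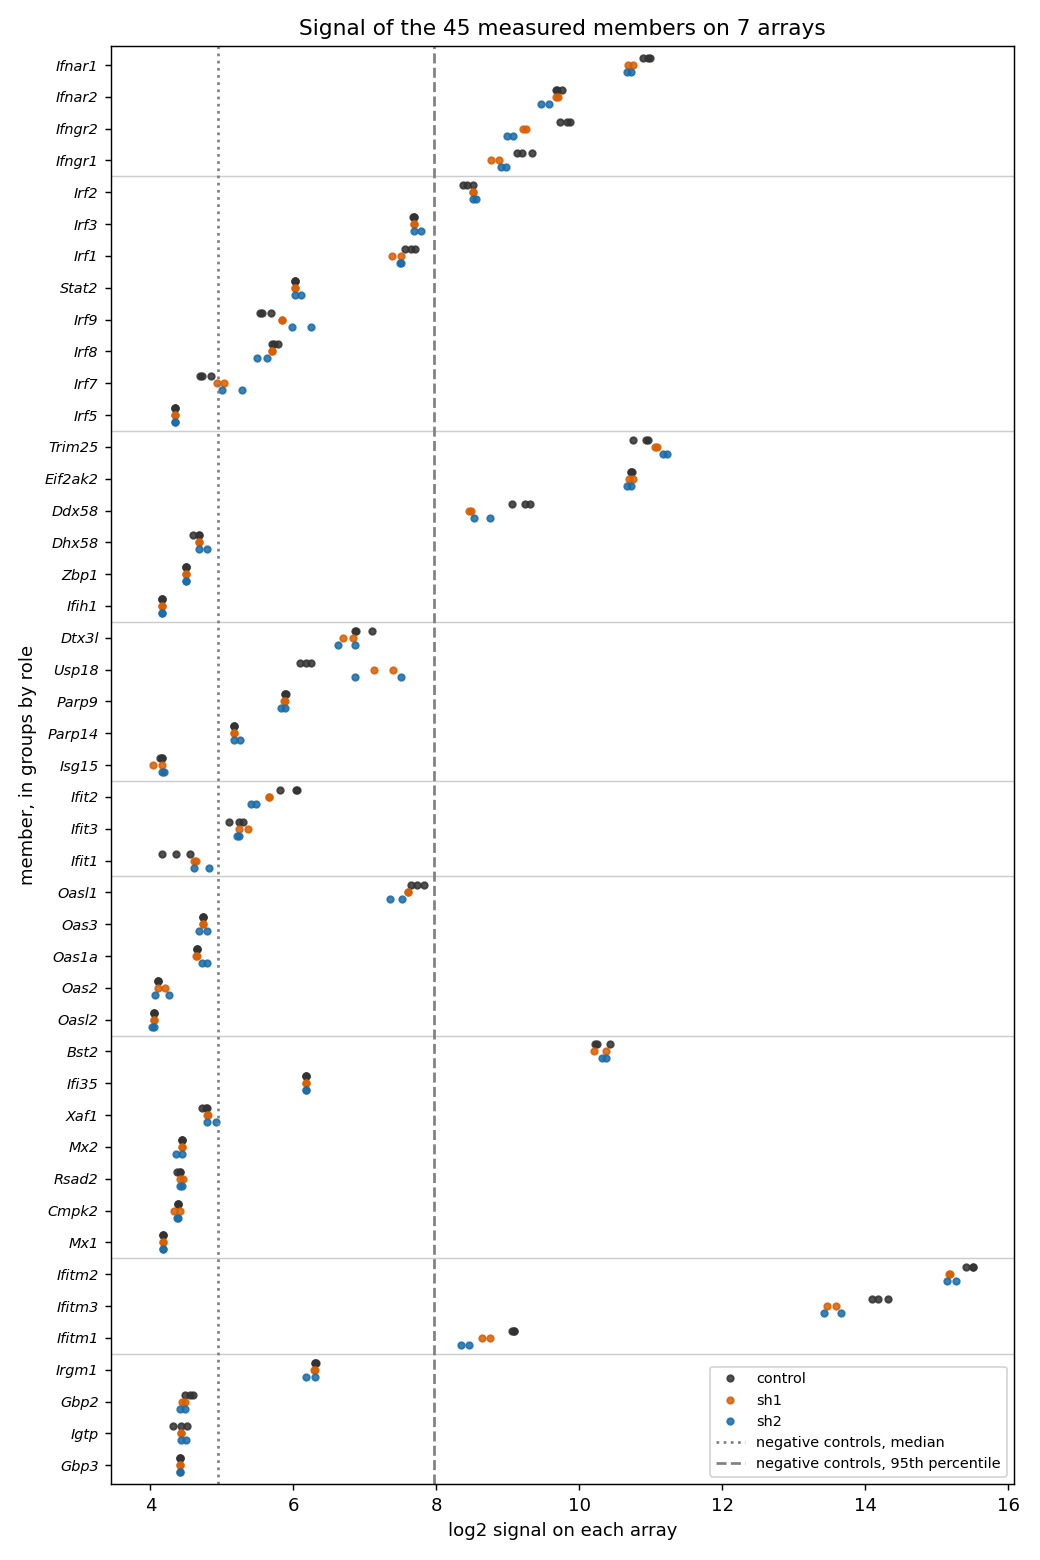
Log2 signal (x axis) of each of the 45 measured members (y axis, grouped by role) on the 3 control, 2 sh1 and 2 sh2 arrays, 1 point per array. The dotted line is the median of the negative controls (4.94) and the dashed line their 95th percentile (7.97), and 12 members have a mean to the right of the dashed line.

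The marker Isg15, a ubiquitin-like protein joined to other proteins after interferon, stayed at the floor. It measured 4.13, 4.17 and 4.17 in the control arrays, 4.03 and 4.17 in sh1, and 4.17 and 4.18 in sh2. The groups overlapped, only 27.4% of the negative controls had a lower mean, and the shSnail difference was -0.02 ± 0.04 (SE), with a 95% interval of -0.12 to 0.08. Some other genes that interferon induces in mouse cells were about as low. Means over 7 arrays were 4.18 for Mx1 and 4.43 for Mx2, GTPases that block virus replication. They were 4.42 for Rsad2 (viperin), 4.14 for Oas2 and 4.05 for Oasl2. Not all were low: the means were 10.31 for Bst2, 8.83 for Ddx58 and 6.77 for Usp18.

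In shSnail cells, 3 of the 45 members were called lower than in control cells and 0 higher (limma, adjusted p under 0.05). Of all 65770 transcript clusters, 0.432% were called lower and 0.21% higher. The 3 were Ifngr2, Ifitm3 and Ifnar1, and all were above background, where 1.27% of clusters were called lower and 0.951% higher. When the p was left unadjusted, 11 members under 0.05 were lower and 6 higher, beside 4.65% and 5.45% of all clusters. The 4 shSnail arrays lay wholly below the 3 control arrays for 10 members and wholly above for 5, beside 4.01% and 5.08% of all clusters. Among the 12 members above background these counts were 7 and 1, beside 11.0% and 17.1% of the clusters above background. The median difference over the 45 members was 0, as over all clusters, while over the 12 it was -0.26, beside 0.02 over the clusters above background. With sh1 and sh2 as separate groups in the fit, Ifngr2 kept its call (adjusted p = 0.019), while Ifnar1 (0.0661) and Ifitm3 (0.0639) lost theirs. Each of the 3 calls was lost when any 1 of the 7 arrays was left out, where 0.0882% to 0.201% of all clusters were called lower. The direction stayed the same in all 18 alternative analyses of each. Since the groups did not overlap, no leave-out could reverse it, and several alternatives change the test but not the difference. The negative controls also moved with the groups: their median was 4.83 to 4.86 in control arrays, 4.92 to 4.99 in sh1 and 5.12 to 5.20 in sh2, opposite to the fall of these members. With each array centred on its negative controls, the difference was -0.89 for Ifngr2, -0.87 for Ifitm3 and -0.45 for Ifnar1. That centring moves the shSnail difference of every cluster alike (the median over all clusters became -0.21). The larger falls are thus not particular to these members.

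**Figure D2:**
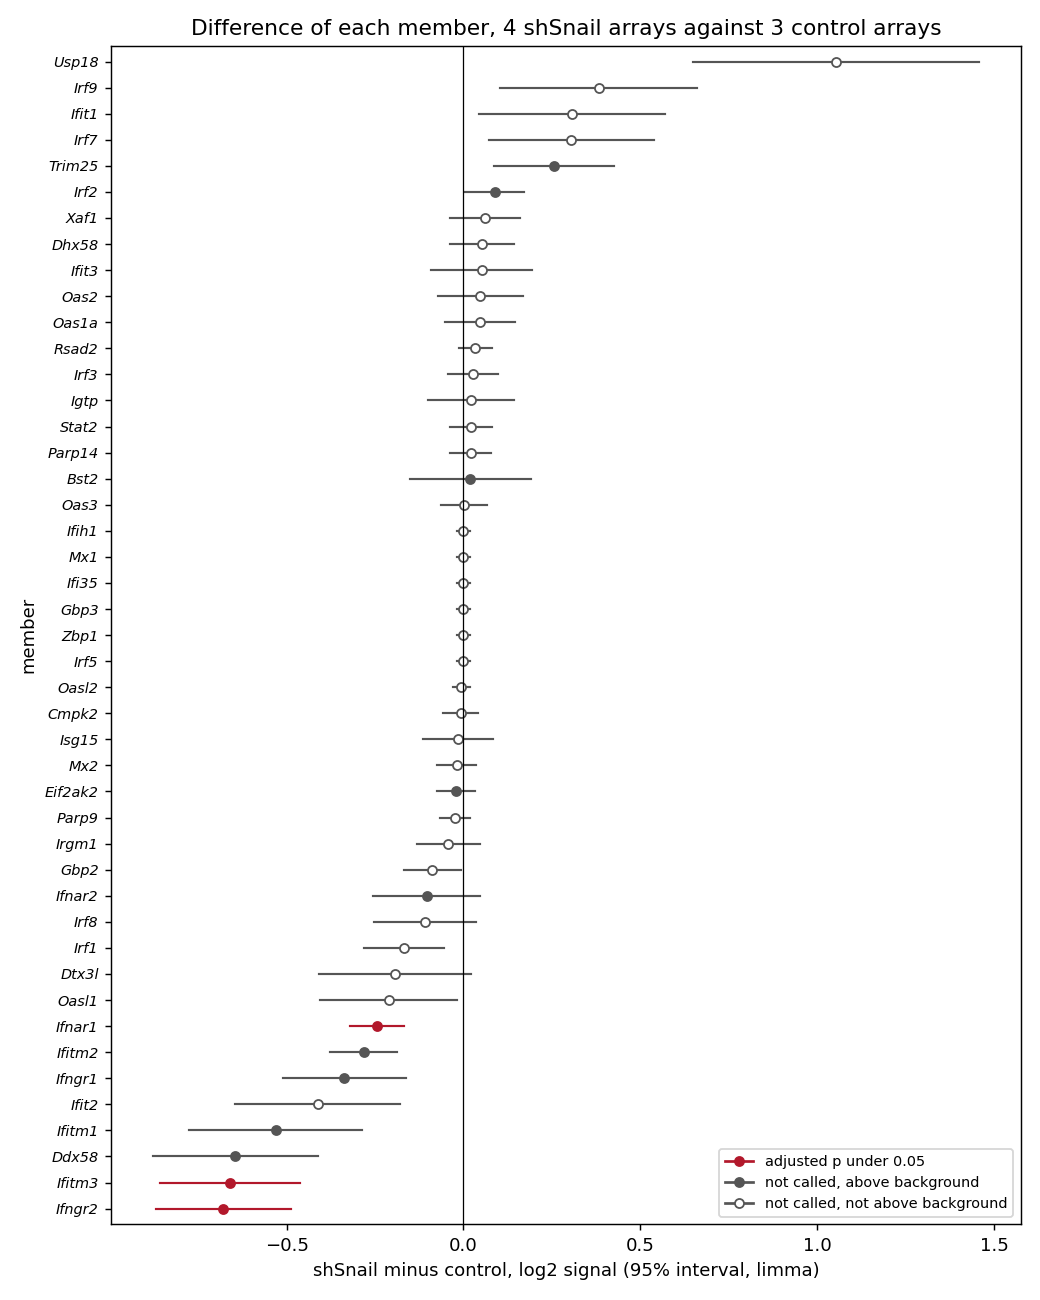
Difference of shSnail (4 arrays) minus control (3 arrays) in log2 signal for each of the 45 measured members, with its 95% interval from limma; filled points are members above background and red marks an adjusted p under 0.05. The 3 red members, Ifngr2, Ifitm3 and Ifnar1, lie at -0.68, -0.66 and -0.24, and Usp18, which is not above background, lies at 1.05 without passing the threshold.

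The receptor chains carried 2 of the 3 calls. These 2 genes, Ifnar1 and Ifngr2, lie near each other on chromosome 16 (promoter windows from 91484965 and 91546809), so the calls may not be independent. Ifnar2, which was not called, lies nearby (window from 91372533). Ifngr2, the chain of the interferon gamma receptor that transmits the signal, measured 9.87, 9.83 and 9.73 in control arrays, 9.25 and 9.22 in sh1, and 8.98 and 9.07 in sh2. All 4 shSnail arrays were below all 3 control arrays, and the sh2 arrays were the lowest. The difference was -0.68 ± 0.08 (SE, 95% interval -0.87 to -0.49, adjusted p = 0.0355), which left 62.5% of the control signal. With 1 array left out its adjusted p ran from 0.0659 to 0.152.

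Ifnar1, a chain of the type I receptor, fell less. Its control values were 10.96, 10.99 and 10.89, its sh1 values 10.68 and 10.74, and its sh2 values 10.67 and 10.73. The groups did not overlap, and both hairpins gave nearly the same mean (10.71 ± 0.04 and 10.70 ± 0.04, SD, n = 2 each, against 10.95 ± 0.05, n = 3). The difference was -0.24 ± 0.03 (SE, adjusted p = 0.046), or 84.4% of the control signal, with an adjusted p of 0.0602 to 0.181 when 1 array was left out.

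The partner chains were not called. Ifngr1, which binds interferon gamma, gave 9.12, 9.34 and 9.20 in control arrays, 8.88 and 8.77 in sh1, and 8.91 and 8.98 in sh2. The arrays did not overlap, with a difference of -0.34 ± 0.07 and an adjusted p of 0.167. Ifnar2 gave 9.69, 9.67 and 9.75 in control arrays, 9.67 and 9.70 in sh1, and 9.47 and 9.57 in sh2. The sh1 arrays lay within the control range and only the sh2 arrays below it, and the pooled difference was -0.10 with a 95% interval of -0.26 to 0.05. The receptor genes Ifnlr1 and Il10rb, of the interferon lambda receptor, were not called, and neither was above background.

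The IFITM proteins, which sit in membranes and hinder virus entry, were all lower in signal. Of the 3, 1 passed the test, beside 1.27% of clusters above background called lower and 0.951% higher. Ifitm3 measured 14.09, 14.18 and 14.32 in control arrays, 13.46 and 13.60 in sh1, and 13.43 and 13.66 in sh2. The groups did not overlap, both hairpin means were 13.5, and the difference was -0.66 ± 0.08 (SE, adjusted p = 0.0415), or 63.3% of the control signal. Leaving out 1 array moved the adjusted p to between 0.0851 and 0.153.

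Ifitm2 gave 15.5, 15.5 and 15.41 in control arrays, 15.17 and 15.18 in sh1, and 15.14 and 15.27 in sh2. Its difference of -0.28 ± 0.04 missed the threshold (adjusted p = 0.0561), with no overlap between the groups. Ifitm1 gave 9.06, 9.09 and 9.08 in control arrays, 8.74 and 8.64 in sh1, and 8.35 and 8.45 in sh2, so that the 3 groups did not overlap each other. The pooled difference of -0.53 ± 0.10 was not called (adjusted p = 0.126); the pooled fit counts the gap between the hairpins as spread, and with sh1 and sh2 as separate groups in the fit the same difference was called (adjusted p = 0.0233). The 3 genes neighbour each other on chromosome 7 and encode similar proteins, and the sources used here do not say how probes shared between such copies were treated, so their values may not be independent.

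**Figure D3:**
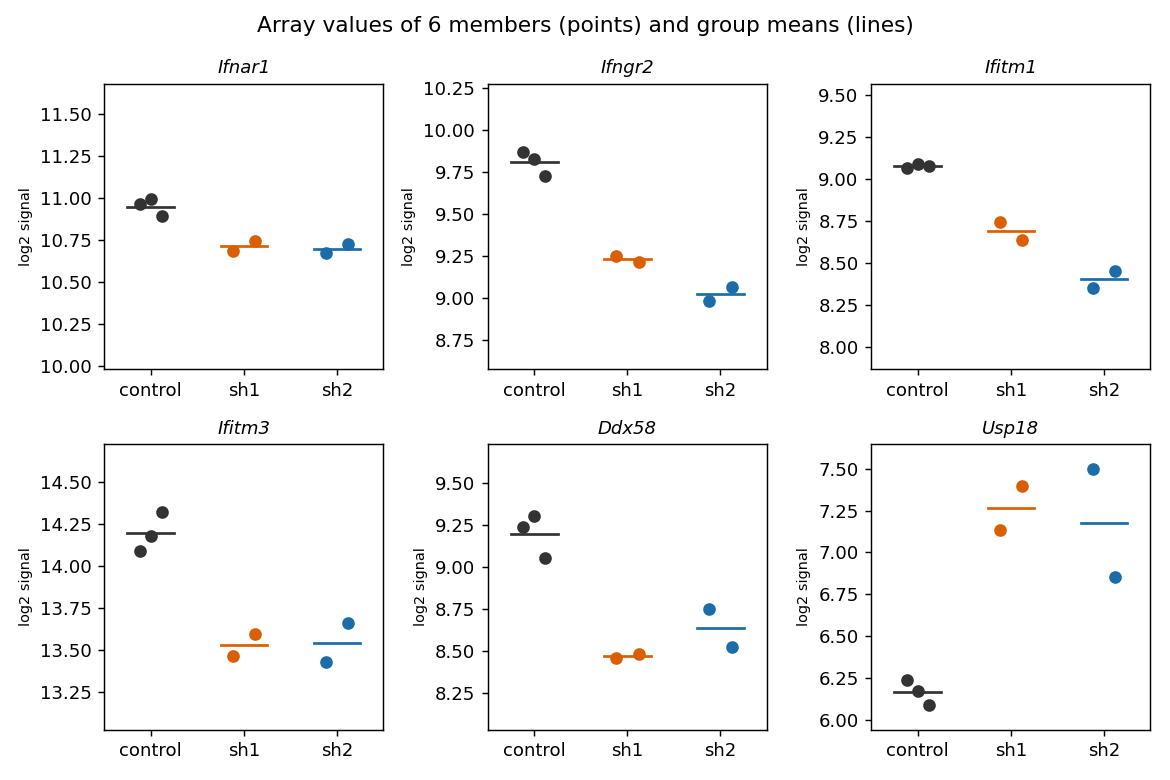
Log2 signal of 6 members on each array (points) with group means (lines) for control (3 arrays), sh1 (2) and sh2 (2); each panel spans the same range on its y axis. Ifnar1, Ifngr2, Ifitm1, Ifitm3 and Ddx58 lie lower in all 4 shSnail arrays than in the control arrays, and Usp18 lies higher, between 6.85 and 7.50 against 6.09 to 6.24.

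Among the transcription factors, 0 of 8 were called, beside 0.432% of all clusters lower and 0.21% higher, and only Irf2 was above background. At an unadjusted p under 0.05, Irf9, Irf7 and Irf2 had higher signals in shSnail arrays and Irf1 a lower one. Irf9, the part of the Stat2 complex that reads the ISRE, gave 5.57, 5.68 and 5.53 in control arrays, 5.84 and 5.84 in sh1, and 6.24 and 5.98 in sh2. All 4 shSnail arrays were above the control arrays, but the values lay below the background limit, and the difference of 0.38 ± 0.11 (adjusted p = 0.345) was 0.18 when each array was centred on its negative controls. Its partner Stat2 was 6.03 on 6 of the 7 arrays and 6.11 on the other, an sh2 array.

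Irf7, which amplifies interferon production, gave 4.70, 4.85 and 4.72 in control arrays, 4.93 and 5.02 in sh1, and 5.29 and 5.00 in sh2. The shSnail arrays were again all above the control arrays, near the median of the negative controls (difference 0.30 ± 0.09, adjusted p = 0.381, and 0.10 after that centring). Irf1 gave 7.70, 7.57 and 7.65 in control arrays, 7.38 and 7.50 in sh1, and 7.49 and 7.50 in sh2. The difference of -0.17 ± 0.05 was not called (adjusted p = 0.295), and of the 2 clusters annotated to Irf1 the one with the higher mean is given. Irf2 was 8.42, 8.38 and 8.51 in control arrays, 8.51 and 8.52 in sh1, and 8.51 and 8.56 in sh2. The groups touched, and the difference of 0.09 ± 0.03 (adjusted p = 0.479) became -0.12 when each array was centred on its negative controls. Irf3 measured 7.68 on 6 of 7 arrays within 0.01 and 7.78 on the other, and Irf5 was 4.35 on all 7. Irf8, a factor of myeloid and lymphoid cells, gave 5.79, 5.70 and 5.72 in control arrays, 5.70 and 5.70 in sh1, and 5.63 and 5.49 in sh2, with only the sh2 arrays below the control range (difference -0.11, adjusted p = 0.595).

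Of the sensors and their regulators, 0 of 6 were called, beside 0.432% of all clusters lower and 0.21% higher, and Ddx58 came closest. Ddx58 encodes RIG-I, which detects short viral RNA in the cytoplasm, and measured 9.24, 9.30 and 9.05 in control arrays, 8.46 and 8.49 in sh1, and 8.75 and 8.52 in sh2. The groups did not overlap, and the difference of -0.64 ± 0.09 (64.0% of the control signal) had an adjusted p of 0.0702. Trim25, a ubiquitin ligase that acts on RIG-I, differed the other way, with 10.97, 10.93 and 10.75 in control arrays, 11.06 and 11.09 in sh1, and 11.23 and 11.17 in sh2. It was the only member above background whose shSnail arrays all lay above the control arrays, with a difference of 0.26 ± 0.07 (adjusted p = 0.287) that shrank to 0.05 under centring on the negative controls. Eif2ak2, the kinase PKR that halts translation, gave 10.66 to 10.75 over all 7 arrays, with a difference of -0.02 and a 95% interval of -0.07 to 0.03. Ifih1 (MDA5), Dhx58 (LGP2) and Zbp1 were below the negative-control median at 4.17, 4.68 and 4.50.

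Usp18, the protease that removes Isg15 and restrains the type I receptor, was not above background on any array. It measured 6.24, 6.17 and 6.09 in control arrays, 7.13 and 7.40 in sh1, and 7.50 and 6.85 in sh2. The groups stood clearly apart, but the shSnail arrays spread widely (SD 0.29, n = 4, against 0.08, n = 3), and the difference of 1.05 ± 0.16 (95% interval 0.65 to 1.46) missed the threshold at an adjusted p of 0.0828. With each array centred on its negative controls the difference was 0.85. Neither Isg15 nor Parp9, Parp14 and Dtx3l were called. Dtx3l, a ubiquitin ligase that pairs with Parp9, gave 7.10, 6.86 and 6.88 in control arrays, 6.83 and 6.70 in sh1, and 6.86 and 6.63 in sh2, with a difference of -0.19 ± 0.09 (adjusted p = 0.532).

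The classic antiviral effectors showed no called member, where 0.432% of all clusters were called lower and 0.21% higher. Of the IFIT family, whose proteins bind viral RNA, Ifit2 gave 6.04, 6.05 and 5.81 in control arrays, 5.66 and 5.66 in sh1, and 5.48 and 5.41 in sh2, without overlap (difference -0.41 ± 0.09, adjusted p = 0.204). Ifit1 differed the opposite way near the floor, from 4.16, 4.36 and 4.56 in control arrays to 4.61 and 4.64 in sh1 and 4.82 and 4.61 in sh2 (difference 0.31 ± 0.11, adjusted p = 0.45, and 0.10 after centring on the negative controls). Ifit3 overlapped, with means of 5.21 in control and 5.26 in shSnail arrays. The differences of the family thus had both signs, and none passed the test.

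In the OAS family, whose enzymes make oligoadenylates that activate an RNase, 5 members were measured. The groups did not overlap in 1 of them, beside 4.01% of all clusters lower and 5.08% higher. This was Oasl1, a mouse relative that represses translation of Irf7, with 7.82, 7.65 and 7.73 in control arrays, 7.60 and 7.60 in sh1, and 7.52 and 7.35 in sh2 (difference -0.21 ± 0.08, adjusted p = 0.472). Oas1a, Oas2, Oas3 and Oasl2 had differences of -0.01 to 0.05. Of these, Oas1a gave 4.65 on all 3 control arrays, 4.65 and 4.63 in sh1, and 4.79 and 4.72 in sh2, all below the negative-control median. The 7 measured Mx and other antiviral genes all overlapped between groups, with differences of -0.02 to 0.06. Bst2, the member of this group that was above background, gave 10.21, 10.25 and 10.43 in control arrays, 10.21 and 10.38 in sh1, and 10.31 and 10.38 in sh2, a difference of 0.02 with a 95% interval of -0.15 to 0.19. The guanylate-binding and immunity-related GTPases Gbp2, Gbp3, Igtp and Irgm1, which attack vacuoles of intracellular parasites, had differences of -0.09 to 0.02. Gbp2 reached an unadjusted p of 0.0355 at a mean of 4.49 (4.56, 4.60 and 4.48 in control arrays, 4.48 and 4.45 in sh1, 4.48 and 4.42 in sh2).

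Each hairpin was also compared with the same 3 control arrays in a fit of 3 groups, so the hairpins' comparisons share their controls. With sh1, 0 members were called, beside 0.0821% of clusters called lower and 0.0517% higher. Without adjustment, 9 members under 0.05 were lower and 3 higher with sh1, beside 3.43% and 3.91% of clusters. With sh2, 2 members were called lower and 0 higher, beside 0.477% and 0.809% of clusters, and without adjustment the counts were 11 and 6, beside 4.21% and 6.48%. The 2 were Ifngr2 (-0.78 ± 0.05, adjusted p = 0.0255) and Ifitm1 (-0.68 ± 0.05, adjusted p = 0.0257). The sh1 differences of the same genes were -0.57 ± 0.05 (adjusted p = 0.0605) and -0.39 ± 0.05 (adjusted p = 0.0988). In the 5 leave-outs that kept both sh2 arrays, the call of Ifngr2 held in 1 (adjusted p 0.0287 to 0.103) and that of Ifitm1 in 0 (0.0555 to 0.099). In these 5, 0.0076% to 0.254% of all clusters were called lower and 0.00304% to 0.433% higher. The highest shares, 0.254% and 0.433%, came without control replicate 3, where Ifngr2 kept its call. The other leave-outs left 1 sh2 array, assumed to vary like the other groups, and are no sign of stability.

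Directly set against each other, sh2 and sh1 differed in 0 members, as in 0.0% of clusters in either direction. At an unadjusted p under 0.05, 3 members were lower with sh2 and 2 higher, beside 2.26% and 3.74% of clusters. Lower were Ifitm1 (-0.29, 95% interval -0.42 to -0.16, adjusted p = 0.372), Ifngr2 (-0.21, -0.36 to -0.06, adjusted p = 0.574) and Ifnar2 (-0.17, -0.28 to -0.05, adjusted p = 0.587). Higher were Irf9 (0.28, 0.02 to 0.54, adjusted p = 0.783) and Oas1a (0.11, 0.04 to 0.18, adjusted p = 0.468). For Ifnar1 and Ifitm3 the hairpins lay close, with differences of -0.01 (-0.13 to 0.10) and 0.01 (-0.29 to 0.31).

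**Figure D4:**
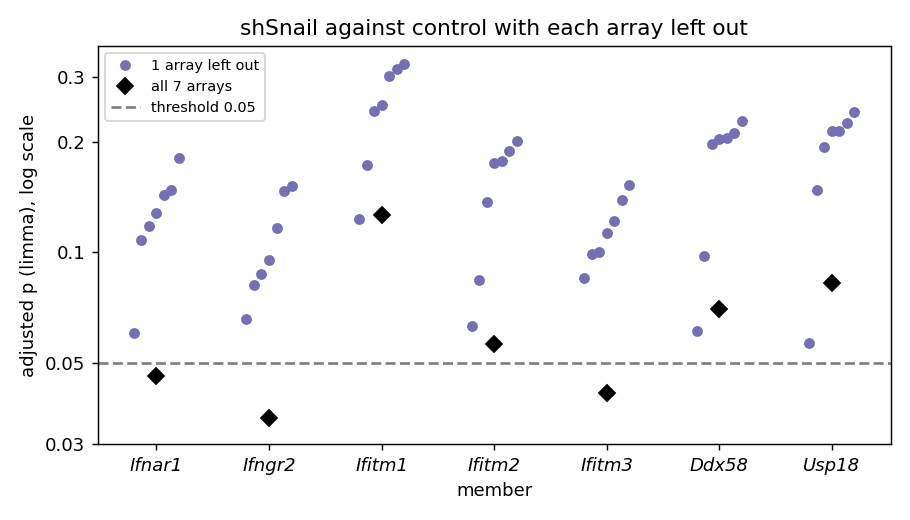
Adjusted p (limma, log axis) of shSnail against control for 7 members with all 7 arrays (diamonds) and with each array left out in turn (7 points per member). Ifnar1, Ifngr2 and Ifitm3 are below the threshold of 0.05 (dashed) with all arrays and above it in every leave-out. Of all clusters, 0.432% were called lower with all arrays and 0.0882% to 0.201% in the leave-outs.

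Of 88 further genes of the pathway, 77 were measured. In shSnail cells 1 was called lower and 0 higher, beside 0.432% and 0.21% of all clusters. Ikbke, a kinase that activates Irf3 and Irf7 downstream of the sensors, measured 10.07, 10.15 and 9.84 in control arrays, 7.75 and 7.80 in sh1, and 7.70 and 7.84 in sh2. The groups were far apart, and the difference of -2.25 ± 0.08 (adjusted p = 0.0021) was larger than that of any member above background. With sh1 alone Ikbke was again the one gene called, beside 0.0821% of clusters lower and 0.0517% higher. With sh2, 3 were lower and 1 higher, beside 0.477% and 0.809% of clusters. They were Ikbke, the RNA sensor Tlr3 (-0.50, adjusted p = 0.0305), Herc6, a ligase of the HERC family (-0.25, adjusted p = 0.0362), and the helicase Znfx1 (0.23, adjusted p = 0.0406), of which only Ikbke was above background. The 9 ligand genes were all at background, with means of 3.57 to 4.99, and 0 were called. Ifnb1 (interferon beta) gave 5.23, 5.17 and 5.02 in control arrays, 5.04 and 5.02 in sh1, and 4.70 and 4.65 in sh2. Of the 4 kinases and STATs measured, 0 were called, and Jak2, the kinase bound to Ifngr2, differed by 0.62 ± 0.10 (adjusted p = 0.0969).

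Facts of the whole array bear on these results as follows. The cluster medians of the 7 arrays ran from 4.51 to 4.56. Of the epithelial keratins, Krt18 gave 16.59 to 16.66 in control and 16.73 to 16.90 in shSnail arrays (difference 0.19, adjusted p = 0.335), Krt19 differed by -0.17 (adjusted p = 0.45) and Krt8 by 0.06 (adjusted p = 0.654), while the epithelial genes Epcam and Cdh1 and the ovarian and Mullerian markers Wt1, Pax8 and Muc16 were at background, as were all 8 measured leukocyte markers (means of 3.93 to 5.33, differences of -0.02 to 0.02, 0 called). Of the 3 endothelial markers Pecam1 and Kdr were at background and did not differ beyond their spread, while Cdh5 gave 4.96 to 5.29 in control, 6.34 and 6.37 in sh1, and 5.92 and 5.79 in sh2 arrays, all below the background limit (difference 0.98 ± 0.18, adjusted p = 0.118). The summed linear signal of these 3 was 74.7 to 82.7 in control, 126.0 to 126.2 in sh1 and 98.9 to 104.3 in sh2 arrays, and its part in the members' differences was not tested. Snai1, the target of the hairpins, gave 6.55 to 6.80 over all 7 arrays and was not above background, so its own values give no check of the knockdown.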

How the data were processed

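RNA of 7 HM-1 cultures was measured on Affymetrix mouse transcriptome arrays. The deposited table holds log2 signal values that the authors made with Affymetrix Expression Console. No source used here gives its version, the background correction or the probe summary. The methods also name a one-way analysis of variance with a fold minimum, which was run as an alternative. Equal values occur in at least 2 of 7 arrays for 79.9% of clusters and were kept. The 6918 entries that are not transcript clusters were left out of the tests. No further normalization was applied.

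Members and lists were chosen with earlier results of these data known, so their counts are no independent evidence. Genes were named from the platform annotation where a cluster had exactly 1 symbol; where a gene had more than 1, the cluster of highest mean stood for it. Values per array are given for members called or past an unadjusted p of 0.05 in shSnail against control, members whose groups did not overlap, the receptors, Isg15, Stat2 and the interferon regulatory factors; the rest are given as ranges. Fits used limma 3.58.1 in R 4.3.3 (lmFit, eBayes), with Benjamini-Hochberg adjustment over 65770 clusters: 4 shSnail against 3 control arrays, and 3 groups for single hairpins (also tried for the pooled contrast). The script was checked on simulated data. Plots and motif searches used Python 3.11.15 and matplotlib 3.10.9. Alternatives were other filters, scalings, weights and sample sets. The number of arrays limits the precision.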

Additional observations from a re-analysis of the deposited data

Results flagged for a closer look

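In 13 members 1 array among the 4 of shSnail lay far from the rest by Dixon's measure, the gap divided by the whole range. Chance flags about 1 in 20 groups where values are not tied, but 79.9% of all clusters hold equal values. The share of all clusters flagged was not computed, so the count is no result about these 13 members. None of them was a called member, and in most the other three arrays held the same or nearly the same value, so that any departure fills the range. The ratio was 1 for Stat2 (an sh2 array at 6.11 against 6.03), Irf3 (7.78 against 7.68), Dhx58 (4.79 against 4.68), Parp14 (5.25 against 5.17), Oasl2 (4.03 against 4.05), Mx2 (4.36 against 4.44) and Igtp (4.49 against 4.43). It was 0.937 for Irf1 (an sh1 array at 7.38 against 7.49 to 7.50), 0.881 for Isg15 (an sh1 array at 4.03 against 4.17 to 4.18), 0.845 for Parp9 (5.82 against 5.87 to 5.88), 0.866 for Ifit1 (4.82 against 4.61 to 4.64), 0.901 for Xaf1 (4.92 against 4.79 to 4.80) and 0.912 for Irgm1 (6.17 against 6.29 to 6.30). The array that stood apart was an sh2 array in all but Irf1 and Isg15. No member differed between sh2 and sh1 after adjustment.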

How the results depend on the processing

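Ifngr2, Ifitm3 and Ifnar1 kept their direction in all 18 alternatives of each, most of which could not change it. Their calls held in 9, 8 and 6 of the 11 other analyses of all 7 arrays. Of members not called in the report, Ifitm2 and Ddx58 were called in 6, Ifitm1 and Ifngr1 in 3 and Usp18 in 5 of 10. Brackets hold the shares of all tested clusters called lower and higher, which also changed. Members called in shSnail numbered 3 with all arrays and 2 with 3 groups in the fit (Ifngr2 and Ifitm1, 0.474% and 0.488%). They numbered 0 in every leave-out, with the replicate block (0.0122% and 0.0%) and with the one-way analysis of variance after Benjamini-Hochberg (0.122% and 0.0517%). At the methods' own threshold (p under 0.0005 and over 2-fold) that analysis passed 0 of the 45 members, with 1 past the p alone and 1 past the fold alone. Centring on the cluster median called 4, 3 lower and 1 higher (0.594% and 0.331%). The members numbered 5 with array weights (0.465% and 0.233%), 5 among clusters with 1 symbol (1.14% and 0.528%), 6 of 40 tested with a filter at the 40th percentile (1.02% and 0.55%), 7 of 12 with the negative-control filter (means above their 95th percentile; 5.44% and 6.36%), 7 after quantile normalization (0.9% and 0.386%) and 12 (11 lower, 1 higher) after centring on the negative controls (6.25% and 0.909%). For sh1 (0 in the report) they numbered 1 with array weights (0.199% and 0.141%), with the 40th percentile filter (0.386% and 0.231%), among clusters with 1 symbol (0.427% and 0.249%) or with centring on the cluster median (0.249% and 0.109%), 2 after quantile normalization (0.325% and 0.131%), 5 after centring on the negative controls (0.699% and 0.161%) and 6 of 12 with the negative-control filter (2.7% and 2.61%), and leave-outs gave 0 to 0. For sh2 (2) they numbered 5 after quantile normalization (1.11% and 1.09%) or centring on the cluster median (0.677% and 1.3%), and 8 of 12 with the negative-control filter (5.45% and 10.1%). They numbered 0 with the replicate block (0.00152% and 0.0%) or the analysis of variance (0.0076% and 0.0122%). Centring on the negative controls called 41, 40 lower and 1 higher (76.1% and 1.41%), and says little about the members. Leave-outs gave 0 to 6, with 5 and 6 only where 1 sh2 array was left (2.86% and 2.65% of clusters without sh2 replicate 1, 1.01% and 1.04% without sh2 replicate 2). For sh2 against sh1 (0), centring on the negative controls gave 18, all lower, beside 37.7% of clusters lower and 0.535% higher, and leave-outs gave 0 to 2, the 2 without sh2 replicate 1, where 1.86% of clusters were lower and 1.3% higher. That centring moves the medians of all clusters and of the members (0 before) by -0.21 (shSnail), -0.10 (sh1) and -0.31 (sh2). It reversed Irf2 (-0.1193). The negative-control filter (12 members) gave medians of -0.26, -0.27 and -0.26. Leave-outs gave -0.0024 to 0 for shSnail and 0 for both hairpins.

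Pathway genes outside the members (1 called in shSnail) numbered 2 after quantile normalization or centring on the cluster median, 3 with 3 groups in the fit, 4 with the negative-control filter, 12 with centring on the negative controls, and 1 to 2 in leave-outs. For sh1 (1) they numbered 2 with the negative-control filter (2.7% and 2.61%). They numbered 0 with the replicate block (0.00152% and 0.0%) and the analysis of variance (0.0167% and 0.00912%). For sh2 (4) they numbered 7 with the 40th percentile filter, 67 with centring on the negative controls, 1 with array weights, 0 with the replicate block and the analysis of variance, and 0 to 10 in leave-outs. Apart from fewer tested clusters or fewer arrays, the cause was not tested.

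Deviations of same-numbered replicates correlated over clusters at -0.21 to -0.072 between control and hairpin and at 0.157 between sh1 and sh2. With 2 arrays a hairpin the latter is 1 number, so these cannot decide pairing. In the replicate-block fit, control replicate 3 has no partner and adds nothing, and fewer degrees of freedom remain.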
